A study of Mus musculus with 4 samples.

Results

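The 7 genes of the fast-spiking interneuron programme were followed through single-nucleus RNA sequencing of the mouse cerebral cortex: Pvalb, Kcnc1, Kcnc2, Kcna1, Kcna2, Syt2 and Ppargc1a. They form a fixed list of symbols, with no threshold on a measured value, and each was found once among the 21933 genes of the count matrices. The matrices came from 2 Control libraries (CrT+/y) and 2 CrT-KO libraries (CrT-/y), each made from the right cortex of 1 male mouse at postnatal day 100, so n = 2 per genotype throughout. Controls were wild-type littermates, and no group was treated. CrT is the creatine transporter, encoded by the X-linked gene Slc6a8, and the CrT-KO males lacked exons 5 to 7 of it in every cell of the body. Nuclei were sorted by flow cytometry before the droplet step, and the measured quantity was the unique molecular identifier (UMI), a tag that counts each captured RNA molecule once.

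Fast-spiking interneurons are the parvalbumin (PV) cells of the cortex, which inhibit neighbouring neurons with trains of very brief action potentials. Kv3 potassium channels, built from the products of Kcnc1 and Kcnc2, close each spike quickly enough for the next to follow. Kv1 channels, built from the products of Kcna1 and Kcna2, sit on axons and set the threshold for firing. Synaptotagmin-2 (Syt2) is the calcium sensor that triggers fast release of GABA from the terminals of these cells, parvalbumin (Pvalb) buffers the calcium, and PGC-1alpha (Ppargc1a) is a transcriptional coactivator that drives mitochondrial genes. The study asked which cortical cell types respond to loss of creatine uptake, with PV interneurons as a cell type of particular interest because their firing is costly in energy.

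The libraries held 8282 and 9295 nuclei (Control) and 9270 and 8847 nuclei (CrT-KO), 35694 in all, with 51507483 to 65240843 UMIs per library and a median of 5548 to 6700.5 UMIs per nucleus. Between 12 and 19 cell barcodes were shared by each pair of libraries. Removal of 1236 nuclei marked as doublets left 34458, of which 31830 fell into clusters that could be named from marker genes. Neither the clustering nor the marker lists used the 7 genes. Names end in "-like" because they were rebuilt here. The labelled tissue was cortex, yet 1802 nuclei carried the markers of striatal medium spiny neurons (MSN-like). The deletion was visible in every library: over all named nuclei, Slc6a8 had 318 and 303 UMIs in Control against 93 and 74 in CrT-KO, with a log2 fold change of -1.93 (SE 0.16, edgeR quasi-likelihood test, adjusted p = 0.00477).

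PV-like nuclei numbered 1269 (333 and 305 in Control, 320 and 311 in CrT-KO). They made up 16.4% and 14.0% of the inhibitory nuclei of the Control libraries and 14.0% and 16.5% in CrT-KO. All 12 marker genes of the PV list had UMIs in each library, and their summed level was 2205 to 2448 CPM (UMIs of a gene per 1000000 UMIs of the population), against 1013 to 1120 CPM in SST-like nuclei. Markers of other cells were present at lower sums, with 222 to 257 CPM for the SST list, 69.6 to 92.4 CPM for the VIP list, 755 to 884 CPM for the excitatory list, 452 to 556 CPM for the astrocyte list and 49.4 to 64.1 CPM for the microglial list. The MSN list summed to 1902 to 2141 CPM in PV-like nuclei, close to the PV list, against 11001 to 12348 CPM in MSN-like nuclei. Of that sum, the phosphodiesterase gene Pde10a gave 1525 to 1753 CPM, Drd1 and Drd2 had at most 6.85 CPM each, and Adora2a had no UMI. The oligodendrocyte list summed to 100 and 154 CPM in the Control libraries and to 81.2 and 91.0 CPM in the CrT-KO libraries, with 14 to 16 of 16 markers seen, Mbp among them.

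The genes differ in structure, which matters because the authors counted reads over the whole gene body. On the mouse build GRCm38, Pvalb (ENSMUSG00000005716) spans chr15:78191114-78206400 on the minus strand, Kcnc1 (ENSMUSG00000058975) chr7:46396497-46438704 on the plus strand and Kcnc2 (ENSMUSG00000035681) chr10:112271121-112467024 on the plus strand. Kcna1 (ENSMUSG00000047976) spans chr6:126640397-126646384 on the minus strand and Kcna2 (ENSMUSG00000040724) chr3:107101146-107115005 on the plus strand. Syt2 (ENSMUSG00000026452) spans chr1:134646677-134762593 on the plus strand and Ppargc1a (ENSMUSG00000029167) chr5:51454250-51567726 on the minus strand. Kcna1 and Kcna2 are short genes of 5.99 kb and 13.9 kb, of which 79.8% and 85.9% is exon. Kcnc2 is 196 kb long and only 3.64% of it is exon, so nearly all of its sequence is intron. Syt2 overlaps 7936 bases of Ppp1r12b on the opposite strand, which was also counted. Whether reads of Ppp1r12b entered the Syt2 values was not tested.

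Promoters of the calcium buffer and the Kv3 genes are shown because these genes had their highest level in the same nuclei. The sequences are the 250 bases before a RefSeq transcription start (GRCm38.p6), 5′ to 3′ on the strand of the gene, and capitals mark GGGCGG or its complement CCGCCC, the letters of a GC box. The window nearest the annotated gene start is shown for each, and none that touched an annotated exon.
Pvalb, chr15:78206401-78206650, minus strand: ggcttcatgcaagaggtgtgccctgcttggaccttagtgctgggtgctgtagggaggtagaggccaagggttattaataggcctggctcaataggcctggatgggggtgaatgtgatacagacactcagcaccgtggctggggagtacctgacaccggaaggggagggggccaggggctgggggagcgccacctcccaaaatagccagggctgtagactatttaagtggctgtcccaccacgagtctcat
Kcnc1, chr7:46396218-46396467, plus strand: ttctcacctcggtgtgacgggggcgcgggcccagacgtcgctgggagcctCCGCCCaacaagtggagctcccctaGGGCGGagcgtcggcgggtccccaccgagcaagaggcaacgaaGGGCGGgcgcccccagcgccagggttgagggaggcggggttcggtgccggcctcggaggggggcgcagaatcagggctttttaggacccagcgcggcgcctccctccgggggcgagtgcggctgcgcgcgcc
Kcnc2, chr10:112270871-112271120, plus strand: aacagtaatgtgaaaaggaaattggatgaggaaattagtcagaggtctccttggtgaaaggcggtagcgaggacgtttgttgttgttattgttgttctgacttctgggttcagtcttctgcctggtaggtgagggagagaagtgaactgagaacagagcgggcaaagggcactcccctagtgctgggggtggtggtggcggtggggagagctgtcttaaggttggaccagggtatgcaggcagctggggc

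The Kcnc1 window held 3 GC-box matches and 30 CG pairs, with 74.4% G and C. The Pvalb window held no match, 4 CG pairs and 58.4% G and C, and the Kcnc2 window held no match, 5 CG pairs and 52.8%. Both genes had 1 other window free of exons. That of Pvalb (chr15:78204238-78204487) held no match, 23 CG pairs and 71.6%, and that of Kcnc2 (chr10:112269767-112270016) held 1 match, 2 CG pairs and 52.4%. Of all 32851 RefSeq promoter windows of the same length, 32.7% held GGGCGG on either strand, and the median window had 6 CG pairs. The letters AAGGTCA, the core recognised by the estrogen-related receptors that PGC-1alpha coactivates, were found on either strand in 4.08% of all windows. Among the 11 windows of 6 of the 7 genes, only the upstream-most Syt2 window held them, 167 bases before the start. Such matches describe letters and do not show binding, and no window of Kcna1 was in the table.

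The 7 genes did not form a single expression pattern in the Control libraries. Pvalb, Kcnc1, Kcnc2, Syt2 and Ppargc1a had their highest mean level among 17 populations in PV-like nuclei, whereas Kcna1 and Kcna2 had theirs in oligodendrocytes. With doublets kept, 6 of the 7 were highest in PV-like nuclei. These levels describe clusters of the nuclei that were clustered and were not tested.

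**Figure D1:**
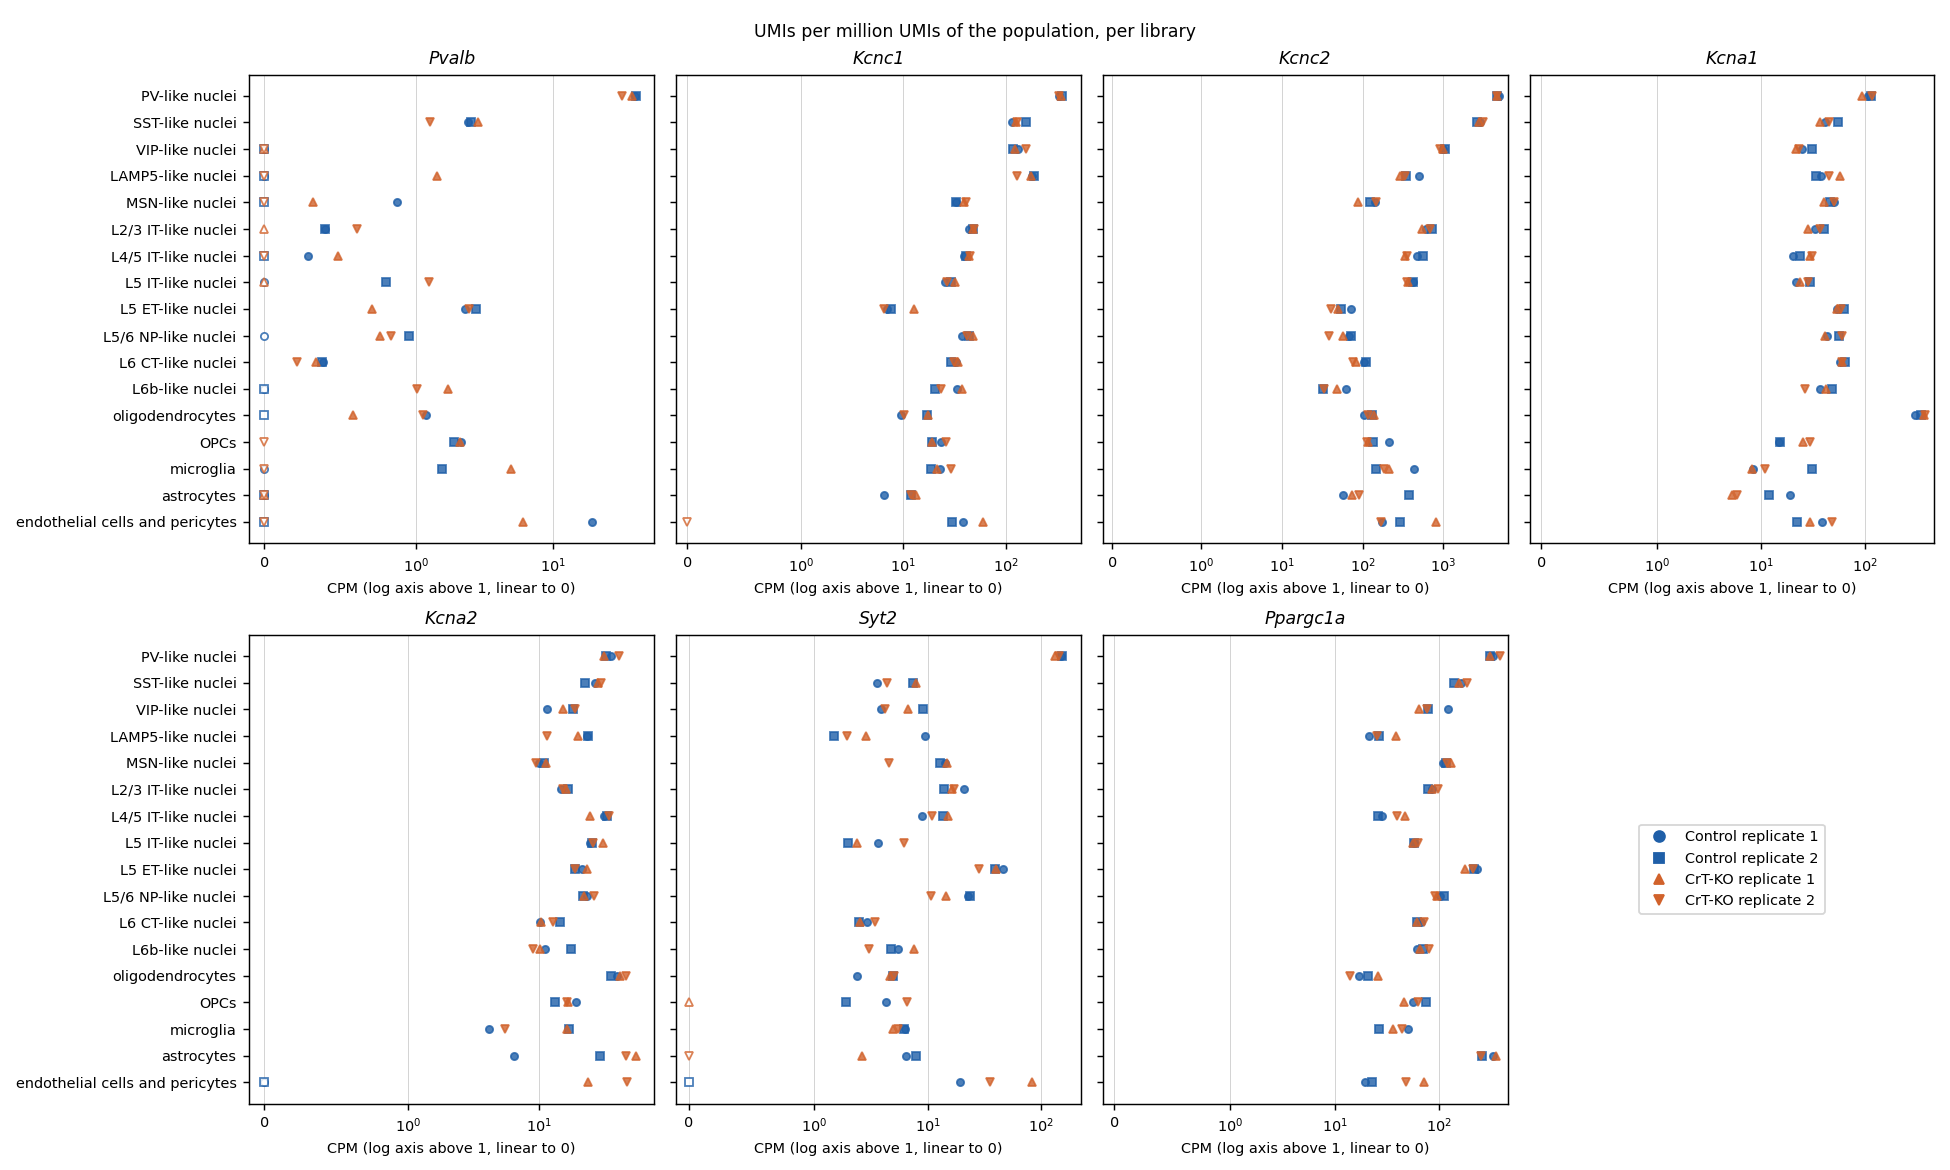
Level of each of the 7 genes (CPM, log axis above 1 and linear to 0) in 17 populations, with 1 point per library and open points at 0. PV-like nuclei are the highest population for 5 of the 7 genes, and oligodendrocytes for Kcna1 (301 to 376 CPM over the 4 libraries) and Kcna2.

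Pvalb RNA was sparse and the most restricted of the 7. It reached 39.8 and 40.2 CPM in the Control PV-like nuclei, from 93 and 90 UMIs, and a Pvalb UMI was seen in 22.2% and 22.3% of those nuclei. SST-like nuclei, the next interneuron type, had 2.45 CPM (SD 0.0784), a level 16.4-fold lower. Layer 5 extratelencephalic-like (L5 ET-like) nuclei had 2.51 CPM (SD 0.305), which overlapped the SST-like range. None of 440 VIP-like nuclei and none of 554 astrocytes held a Pvalb UMI, which allows shares with a UMI of up to 0.682% and 0.542%. These limit nuclei with a UMI, not nuclei that express the gene, and median depths were 4215 to 4832 UMIs in VIP-like nuclei and 1910.5 to 2379 in astrocytes. The apparent second rank of endothelial cells and pericytes, 9.61 CPM, rested on 1 UMI in the Control libraries, and all 4 libraries together held 2. Such intervals and limits cover counting error only.

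The Kv3 genes were shared across interneurons in different proportions. Kcnc1 had 336 and 358 CPM in the Control PV-like nuclei, followed by LAMP5-like (186 CPM, SD 5.44), SST-like (138, SD 31.2) and VIP-like nuclei (125, SD 8.67), of which the last pair overlapped. Kcnc1 was lowest in L5 ET-like nuclei, at 7.25 CPM (SD 0.531), so that PV-like nuclei stood 47.9-fold above these large projection neurons. Kcnc2 had 4904 and 4662 CPM in PV-like, 2756 (SD 149) in SST-like, 1034 (SD 38.6) in VIP-like, 670 (SD 74.1) in layer 2/3 intratelencephalic-like (L2/3 IT-like) and 427 (SD 113) in LAMP5-like nuclei. LAMP5-like nuclei thus ranked second for one Kv3 gene and below an excitatory subclass for the other. The ratio of Kcnc2 to Kcnc1 UMIs was 13.0 to 14.6 over the 4 libraries in PV-like nuclei, 16.6 to 24.7 in SST-like, 5.75 to 8.91 in VIP-like and 1.63 to 2.78 in LAMP5-like nuclei, ranges that did not overlap.

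The share of nuclei with a Kcnc2 UMI has to be read against Kcnc2 UMIs in cells that are not neurons. Whether these UMIs were free RNA was not tested. A Kcnc2 UMI was seen in 99.9% of PV-like nuclei (95% Wilson interval 99.56% to 99.99%), but also in 14.8% of the 2231 microglia (13.4% to 16.4%), which are not neurons. Kcnc2 in microglia was 439 and 149 CPM in the Control libraries, a mean of 294 (SD 205), as high as in several excitatory subclasses. Nuclei of microglia were shallow, with a median of 880 to 1032 UMIs, so that their CPM is no floor for deeper nuclei. Per nucleus, microglia held 0.240 Kcnc2 UMIs on average. Kcnc1, a gene of lower level, was seen in 81.9% of PV-like nuclei and 2.11% of microglia. In Control CPM the 2 genes were alike, with PV-like nuclei 16.7-fold above microglia for Kcnc1 and 16.3-fold for Kcnc2.

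The Kv1 genes were not particular to interneurons. Kcna1 had 301 and 348 CPM in the oligodendrocytes of the Control libraries and 107 and 116 CPM in PV-like nuclei, with no other population above 61.2 CPM on average. A Kcna1 UMI was seen in 37.1% of 5121 oligodendrocytes and 45.9% of PV-like nuclei, against 1.43% of microglia. Kcna2 was at 38.0 CPM in oligodendrocytes, 34.3 CPM in PV-like and 32.6 CPM in layer 4/5 intratelencephalic-like (L4/5 IT-like) nuclei. PV-like nuclei overlapped with both others, whereas oligodendrocytes (35.7 and 40.3 CPM in Control) and L4/5 IT-like nuclei (31.6 and 33.7 CPM) did not overlap. The ratio of Kcna1 to Kcna2 UMIs was 2.82 to 3.55 in PV-like nuclei, 7.47 to 9.74 in oligodendrocytes and 0.651 to 1.19 in L4/5 IT-like nuclei, without overlap among these. The PV-like range did not overlap SST-like (1.30 to 2.47) or VIP-like nuclei (1.22 to 2.17). It did overlap LAMP5-like (1.44 to 3.83), L5 ET-like (2.25 to 3.31) and L6b-like nuclei (2.73 to 4.17), among others.

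Syt2 and Ppargc1a were each shared with L5 ET-like neurons. Syt2 had 152 and 155 CPM in the Control PV-like nuclei, 43.2 CPM (SD 4.93) in L5 ET-like and 23.3 CPM (SD 0.744) in layer 5/6 near-projecting-like (L5/6 NP-like) nuclei. The other interneuron types were far lower, with 5.54 CPM (SD 2.77) in SST-like nuclei, a 27.7-fold gap. For Ppargc1a, PV-like nuclei had 325 and 308 CPM, astrocytes 328 and 254 CPM, followed by 220 (SD 9.42) in L5 ET-like and 149 in SST-like nuclei. PV-like nuclei and astrocytes overlapped for Ppargc1a, and LAMP5-like nuclei were near the bottom of the order at 24.0 CPM.

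The genes were set side by side per length, and whether UMIs scale with the length of the gene body was not tested. Per kilobase of gene body, the Control PV-like nuclei held 24.4 CPM of Kcnc2, 18.6 of Kcna1, 8.22 of Kcnc1, 2.79 of Ppargc1a, 2.62 of Pvalb, 2.47 of Kcna2 and 1.33 of Syt2. Kcna1 thus moved next to Kcnc2, although its plain level was among the lower ones. Single PV-like nuclei held UMIs of 3.86 to 3.93 of the 7 genes on average, and 82.0% to 84.3% of them held at least 3, compared with 44.8% to 53.9% of SST-like nuclei. Median depths were 6140 to 7235.5 UMIs per PV-like and 5977.5 to 7343 UMIs per SST-like nucleus.

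The PV-like nuclei held 3 sub-clusters, called here by their leading genes, in which the 7 genes stood at different levels. The Eya4 sub-cluster (887 nuclei) had 41.7 CPM of Pvalb, 4202 of Kcnc2 and 157 of Syt2 over the 4 libraries summed. The Myo1e sub-cluster (327 nuclei) had less Pvalb (29.3 CPM) and more Kcnc2 (6493 CPM), and its libraries lay at 6303 to 6812 CPM against 3842 to 4410 CPM in the Eya4 sub-cluster. The small Unc5b sub-cluster (55 nuclei) had Kcnc1 at 325 CPM and Kcnc2 at 2274 CPM, but 4 Pvalb UMIs (13.5 CPM) and 1 Syt2 UMI (3.38 CPM). Kv3 RNA was thus present in it with little Pvalb or Syt2 RNA.

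A further sub-cluster led by Hs3st2 (127 nuclei, 1.38% to 1.71% of inhibitory nuclei per library) did not meet the naming rule. It had 12.9 CPM of Pvalb, 213 of Kcnc1, 61.1 of Syt2 and 563 of Kcnc2, so that Syt2 was higher and Kcnc2 lower than in the Unc5b sub-cluster. Both SST-like sub-clusters differed in Kcnc2, at 2351 CPM in the one led by Lama4 (542 nuclei) and 3617 CPM in the one led by Trhde (396 nuclei).

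**Figure D2:**
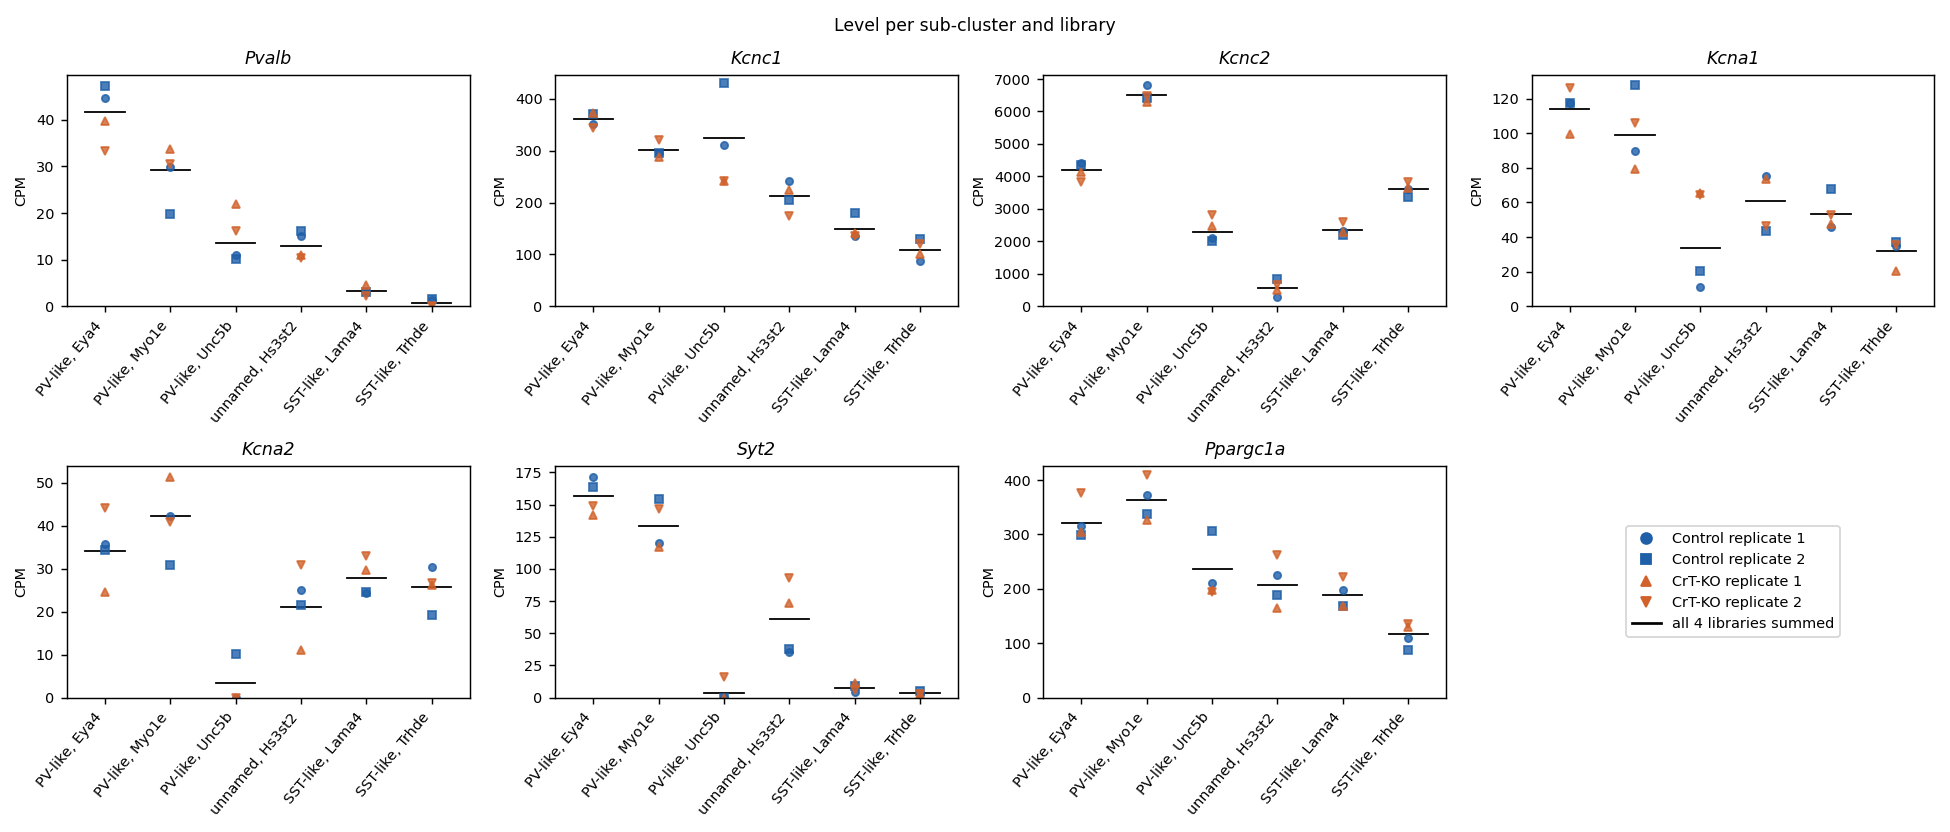
Level of each of the 7 genes (CPM, linear axes) in 3 PV-like sub-clusters, 1 unnamed sub-cluster and 2 SST-like sub-clusters, with 1 point per library and a line at the 4 libraries summed. Kcnc2 is higher in every library of the Myo1e sub-cluster (6303 to 6812 CPM) than of the Eya4 sub-cluster (3842 to 4410 CPM), and Syt2 is near 0 in the Unc5b sub-cluster.

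Across the 17 populations the profiles of the genes were compared by Pearson r of log2(CPM + 1) in the Control means, as a description over populations that share libraries. Kcnc1 and Kcnc2 were most alike among the 7 (r = 0.77), and Kcnc1 ranked first among all 11592 genes compared with Kcnc2. Pvalb and Syt2 followed (r = 0.63) and Syt2 and Ppargc1a came next (r = 0.55). Kcna1 had r between -0.03 and 0.29 with each of the others. The genes closest to Pvalb were Pdlim3 (0.80), Mpc2 (0.79), a subunit of the mitochondrial pyruvate carrier, and Nefh (0.77), the heavy neurofilament. Outside PV-like nuclei the Pvalb profile was near its floor. Its second-highest value, 9.61 CPM in endothelial cells and pericytes, came from 1 Control UMI. How far the Pvalb order rests on such counts was not tested. Closest to Kcna1 were Map1a (0.90), Slain1 (0.89) and Ptpn11 (0.88), closest to Ppargc1a were Ephx2 (0.84), Hhipl1 (0.82) and Cox10 (0.79), and closest to Syt2 were Pnkd (0.81), Nrg4 (0.75) and Nudcd1 (0.74).

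CrT-KO and Control were then compared in PV-like nuclei, the population the genes are known for. None of the 7 genes passed the test there, and their log2 fold changes lay between -0.19 and 0.13. UMIs were summed per library and tested with edgeR's quasi-likelihood test, adjusted over the 9411 genes tested, at an adjusted p of 0.1. At that threshold 0 of 7 genes were called and 0 had an unadjusted p under 0.05, DESeq2 called 0, and over all genes 0.085% were called. In these and all other sums, fewer nuclei of a kind and less RNA per nucleus are separate only as far as the clusters are.

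Pvalb had 93 and 90 UMIs in Control and 95 and 65 in CrT-KO, or 39.8 and 40.2 against 37.8 and 31.8 CPM. Both CrT-KO libraries lay below both Control libraries, by little in CrT-KO replicate 1. The log2 fold change was -0.19 (SE 0.17, adjusted p = 0.971), a ratio of 0.878 with an approximate 95% interval of 0.693 to 1.11. With so few UMIs, the interval takes in both a clear loss and a small gain of Pvalb RNA.

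The Kv3 genes were measured with the most UMIs. Kcnc1 had 786, 801, 871 and 681 UMIs (Control replicates 1 and 2, then CrT-KO replicates 1 and 2), or 336, 358, 347 and 333 CPM, and the groups overlapped. Its ratio was 0.983 (0.868 to 1.11). Kcnc2 had 11461, 10444, 11782 and 9598 UMIs, or 4904, 4662, 4690 and 4695 CPM, with a ratio of 0.985 (0.888 to 1.09). The interval for Kcnc2 was the narrowest of the 7.

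Kcna1 had 249, 259, 235 and 240 UMIs in the same order, or 107, 116, 93.5 and 117 CPM, with a ratio of 0.948 (0.795 to 1.13). Kcna2 had 84, 73, 79 and 85 UMIs, or 35.9, 32.6, 31.4 and 41.6 CPM, with a ratio of 1.06 (0.818 to 1.37). For both Kv1 genes the CrT-KO libraries spanned the Control libraries. The oligodendrocyte markers given above were lower in both CrT-KO libraries, and Kcna1 and Kcna2 are also oligodendrocyte genes in these data. The part of oligodendrocyte RNA in the Kv1 values was not tested.

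Syt2 had 356, 347, 333 and 295 UMIs, or 152, 155, 133 and 144 CPM, and both CrT-KO libraries lay below both Control libraries. Its log2 fold change was -0.15 (SE 0.11, adjusted p = 0.948), a ratio of 0.902 (0.778 to 1.05). Ppargc1a had 760, 689, 775 and 780 UMIs, or 325, 308, 309 and 382 CPM, and overlapped between the genotypes. Its ratio was 1.09 (0.949 to 1.26). Of the 7 genes, 2 (Pvalb and Syt2) did not overlap between genotypes, against 34.1% of all genes tested in these nuclei. The median log2 fold change of the 7 genes was -0.02, and that of all genes tested was -0.0005.

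**Figure D3:**
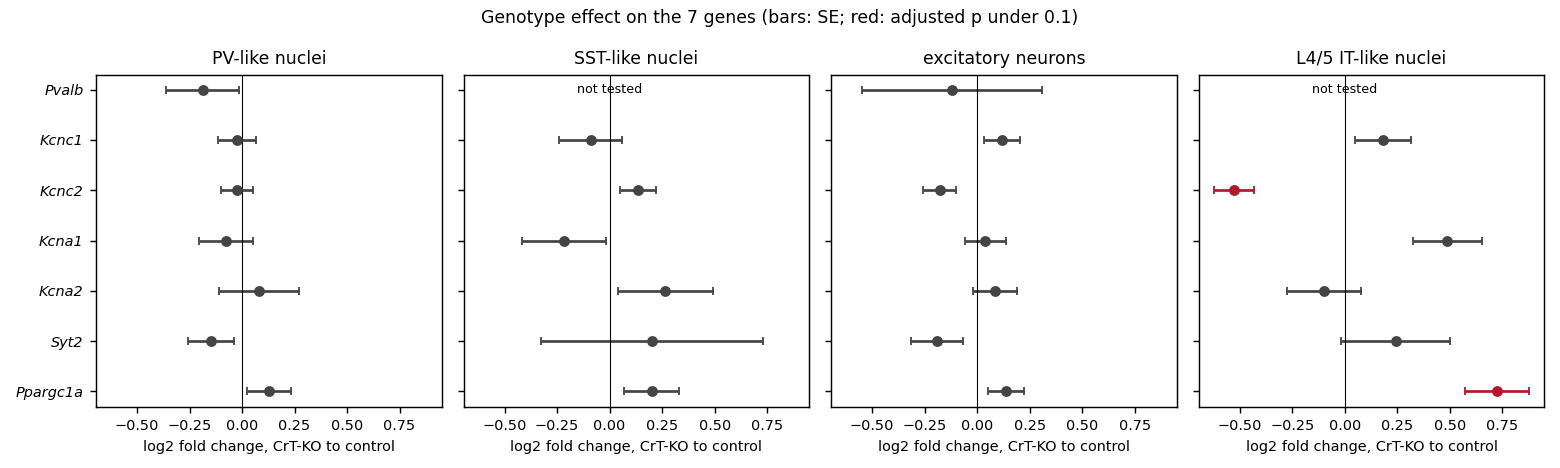
Log2 fold change from Control to CrT-KO for the 7 genes in PV-like nuclei, SST-like nuclei, excitatory neurons and L4/5 IT-like nuclei, with bars of 1 SE and red for an adjusted p under 0.1 (edgeR). In PV-like nuclei the values lie between -0.19 and 0.13, and the red points are Kcnc2 (-0.53) and Ppargc1a (0.72) in L4/5 IT-like nuclei.

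Shares of PV-like nuclei with a UMI were compared at an equal depth of 2000 UMIs per nucleus, as the expected share after thinning, which left out 4, 2, 1 and 3 nuclei per library. Pvalb was at 7.11% (SD 0.187) in Control and 6.10% (SD 0.645) in CrT-KO. Without thinning it was at 22.3% (SD 0.0515) and 20.2% (SD 4.07). Kcnc1 was at 47.5% (SD 1.88) and 45.2% (SD 1.25) when thinned, and at 84.0% (SD 3.22) and 79.8% (SD 3.77) without thinning. Syt2 was at 20.6% (SD 0.988) and 19.04% (SD 0.490), and without thinning at 41.0% and 41.5%, where the order turned. Kcnc2, at 98.96% and 99.42%, was close to its ceiling.

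These 4 genes did not overlap between genotypes at equal depth, against 35.2% of the genes seen in at least 5% of nuclei in a library. By exact permutation of the libraries (two-sided), each gave p = 0.33, the smallest that 2 against 2 allows. Kcna1 (18.6% and 17.1%), Kcna2 (6.11% and 6.61%) and Ppargc1a (42.9% and 45.4%) overlapped. Without thinning, Pvalb, Kcnc1, Kcnc2 and Syt2 overlapped as well, and only Kcna2 (19.1% in Control, 20.9% in CrT-KO) did not. The share over all genes was not computed without thinning.

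**Figure D4:**
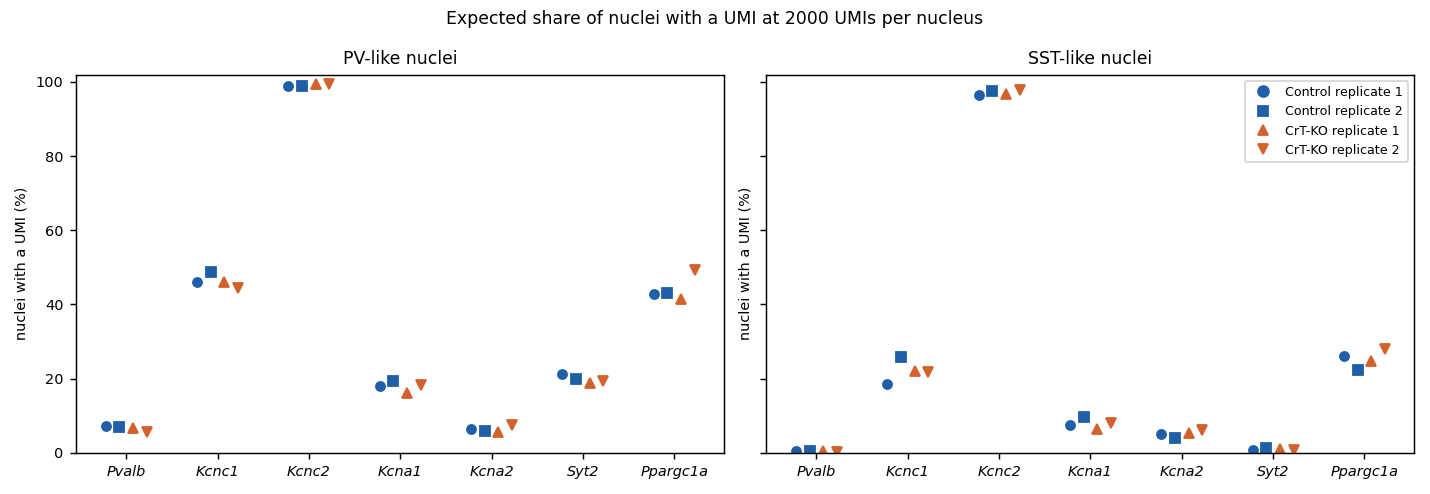
Expected share of PV-like and SST-like nuclei with a UMI of each gene at 2000 UMIs per nucleus, with 1 point per library. Kcnc2 is near 100% in both types, and Pvalb and Syt2 are near 7% and 20% in PV-like nuclei and around 1% or less in SST-like nuclei.

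The other genes of the fast-spiking machinery, taken from 6 lists, gave no call in PV-like nuclei by edgeR or by DESeq2. Of 20 further Kv3 and Kv1 relatives and partners, 15 were tested, with a median log2 fold change of -0.06. The largest were Kcnab3 (-0.30, SE 0.26), a Kv1 beta subunit, and Kcns3 (-0.25, SE 0.12), a silent subunit known from PV cells. Of 6 sodium channel genes 5 were tested (median 0.04), with Scn2b, an auxiliary beta subunit, at -0.39 (SE 0.29). Of 11 genes of fast release and GABA packaging 10 were tested (median 0.01), with Vamp1 at 0.21 (SE 0.35) and Rab3a at -0.10 (SE 0.35).

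The 12 tested of 13 genes of the PGC-1alpha family, its partners and targets had a median of -0.06. Cycs (cytochrome c) was at -0.52 (SE 0.42) and Pprc1, a relative of PGC-1alpha, at 0.41 (SE 0.31). Of 8 perineuronal net genes 6 were tested (median 0.13), with Hapln1 at 0.60 (SE 0.39) and Acan at -0.30 (SE 0.26), the link protein and the main proteoglycan of the net. Of 6 calcium buffers 4 were tested (median -0.01). Over the 6 lists, 1 gene had an unadjusted p under 0.05, and its values are not reported here.

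SST-like nuclei, the interneurons closest to PV-like nuclei in Kcnc2, gave no call either. Of the 7 genes 6 were tested, since Pvalb had 4, 4, 5 and 2 UMIs there, and 0 were called by edgeR (background 0.0463%) or DESeq2, and 0 had an unadjusted p under 0.05. Kcnc2 had 4789, 4239, 4982 and 4958 UMIs and a log2 fold change of 0.13 (SE 0.09), and Ppargc1a one of 0.20 (SE 0.13). Kcna2, with 45 and 36 UMIs against 50 and 48, was the 1 gene of the 6 without overlap, against 34.4% of all genes. In shares at 2000 UMIs per nucleus Kcna2, at 4.63% (SD 0.786) in Control and 5.76% (SD 0.545) in CrT-KO, was again the 1 gene of 7 without overlap, against 35.4% of all genes compared.

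The difference of the genotype effect between PV-like and SST-like nuclei was tested in 1 fit with the library as a block, where 0.0526% of all genes were called. For Kcnc2 it was -0.16 (SE 0.08, 95% interval -0.33 to 0.00327, unadjusted p = 0.0680, adjusted p = 0.925), the smallest p of the 7. Between PV-like nuclei and excitatory neurons (background 0.365%) the difference for Kcnc2 was 0.16 (SE 0.08, interval -0.01 to 0.32, adjusted p = 0.819). In neither fit was any of the 7 genes called, and 0 of 7 had an unadjusted p under 0.05.

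Over 20 tested populations, L4/5 IT-like nuclei, excitatory neurons of the middle layers, were the one population in which any of the 7 genes passed the test in the fit without a replicate block. Kcnc2 fell and Ppargc1a rose there in CrT-KO. These were 2 of 6 tested genes, against 0.507% of all genes called in that subclass, and the subclass was singled out after the values were seen. It held 2100 nuclei, with 456 and 542 in Control and 530 and 572 in CrT-KO.

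Kcnc2 had 1655 and 2254 UMIs in Control and 1405 and 1265 in CrT-KO, or 479 and 555 against 341 and 355 CPM. The groups did not overlap. The log2 fold change was -0.53 (SE 0.09, adjusted p = 0.0296), a ratio of 0.694 (0.611 to 0.789). Without Control replicate 2, the library with the most Kcnc2, it was -0.41 with an adjusted p of 0.130. Microglia had 439 and 149 CPM of Kcnc2 in Control and 211 and 186 CPM in CrT-KO. The highest microglial library was above both CrT-KO libraries of the L4/5 IT-like nuclei in CPM. Per nucleus, L4/5 IT-like nuclei held 3.13 Kcnc2 UMIs, and 80.7% of them had one, at a median depth of 5927 to 7290 UMIs. The part of free RNA in the difference was not tested.

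Ppargc1a had 97 and 105 UMIs in Control and 192 and 140 in CrT-KO, or 28.1 and 25.8 against 46.5 and 39.3 CPM, and the groups did not overlap. Its log2 fold change was 0.72 (SE 0.15, adjusted p = 0.0757), a ratio of 1.65 (1.34 to 2.03). The call was lost with DESeq2 (adjusted p = 0.261), without Control replicate 2 (0.160), without CrT-KO replicate 1 (0.219) and when the 7 genes were left in the clustering (0.106). A Ppargc1a UMI was seen in 18.9% of L4/5 IT-like nuclei and 3.18% of microglia. Median depths were 5927 to 7290 UMIs in the former and 880 to 1032 in the latter. In CPM, Ppargc1a averaged 38.3 in the microglia of the Control libraries (26.3 to 50.2). This was above the Control mean of 27.0 CPM in L4/5 IT-like nuclei, and both CrT-KO values of the subclass lay within the microglial range. The part of free RNA in the Ppargc1a difference was not tested.

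Both clusters that made up the subclass showed the Kcnc2 difference. They are parts of the sum that was called, from the same libraries, so their likeness adds no support to the call. In the one led by Pld5 and Rorb (1154 nuclei) Kcnc2 was 514 and 591 CPM in Control and 355 and 371 in CrT-KO, and Ppargc1a was 26.0 and 17.9 against 42.3 and 38.9. In the one led by Mamdc2 (946 nuclei) Kcnc2 was 436 and 502 against 323 and 336 CPM, and Ppargc1a was 30.7 and 37.3 against 51.7 and 39.8. Markers of inhibitory neurons summed to 116 and 129 CPM in Control and 133 and 123 in CrT-KO in the subclass. Markers of SST interneurons, which carry much Kcnc2, summed to 77.9 and 74.3 CPM against 49.7 and 51.9, with 6 to 8 of 9 seen. Markers of LAMP5 interneurons summed to 55.6 and 53.6 CPM against 43.4 and 41.0, with 8 to 9 of 10 seen. Kcnc2 in Control averaged 427 CPM in LAMP5-like and 517 CPM in L4/5 IT-like nuclei, and the libraries overlapped. Markers of PV interneurons, the cells with the most Kcnc2, summed to 419 to 473 CPM in the subclass over all libraries. The part of interneuron RNA in the Kcnc2 value was not tested.

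Kcna1 in L4/5 IT-like nuclei, with 71 and 97 UMIs against 123 and 110, had a log2 fold change of 0.49 (SE 0.17), and its adjusted p of 0.356 missed the threshold. Of the 6 tested genes 4 did not overlap between genotypes there, against 39.1% of all genes.

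Kcnc2 was lower in CrT-KO in 7 of 7 excitatory subclasses, by log2 fold changes of -0.53 to -0.07. The subclasses came from the same 4 libraries and are not independent. Libraries did not overlap in 5 of the 7, and 5 had an unadjusted p under 0.05, where 33.2% to 39.6% of all genes did not overlap and 4.64% to 9.34% had such a p. The sign turned with a library left out in L2/3 IT-like (up to 0.10) and L6b-like nuclei (up to 0.33), and with doublets kept in L6b-like nuclei (0.00797). In layer 6 corticothalamic-like (L6 CT-like) nuclei Kcnc2 had 105 and 112 CPM in Control and 82.9 and 76.8 in CrT-KO (-0.41, SE 0.11, adjusted p = 0.217). In L5 IT-like nuclei it had 427 and 426 against 363 and 361 CPM (-0.21, SE 0.09, adjusted p = 0.630). In L2/3 IT-like nuclei, where it was highest among excitatory cells, it had 617 and 722 against 549 and 689 CPM and overlapped.

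Over all excitatory neurons Kcnc2 was 423 CPM (SD 32.8) in Control and 362 CPM (SD 15.2) in CrT-KO. This was -0.18 as a log2 fold change (SE 0.08, adjusted p = 0.559). In the same nuclei, markers of SST interneurons summed to 365 and 355 CPM in Control and 281 and 303 in CrT-KO, and those of LAMP5 interneurons to 141 and 139 against 130 and 125, with all 9 and all 10 seen. Those of PV interneurons summed to 274 to 288 CPM over all libraries. The part of interneuron RNA in this Kcnc2 value was not tested. In L5 ET-like, L5/6 NP-like, L6 CT-like and L6b-like nuclei, every library had less Kcnc2 in CPM than the mean of 294 CPM in the microglia of the Control libraries. Per nucleus these subclasses held 0.374 to 0.750 Kcnc2 UMIs, and 21.9% to 30.4% of the nuclei had one, with library medians of 5322 to 12056 UMIs per nucleus. The part of free RNA in these low levels was not tested.

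**Figure D5:**
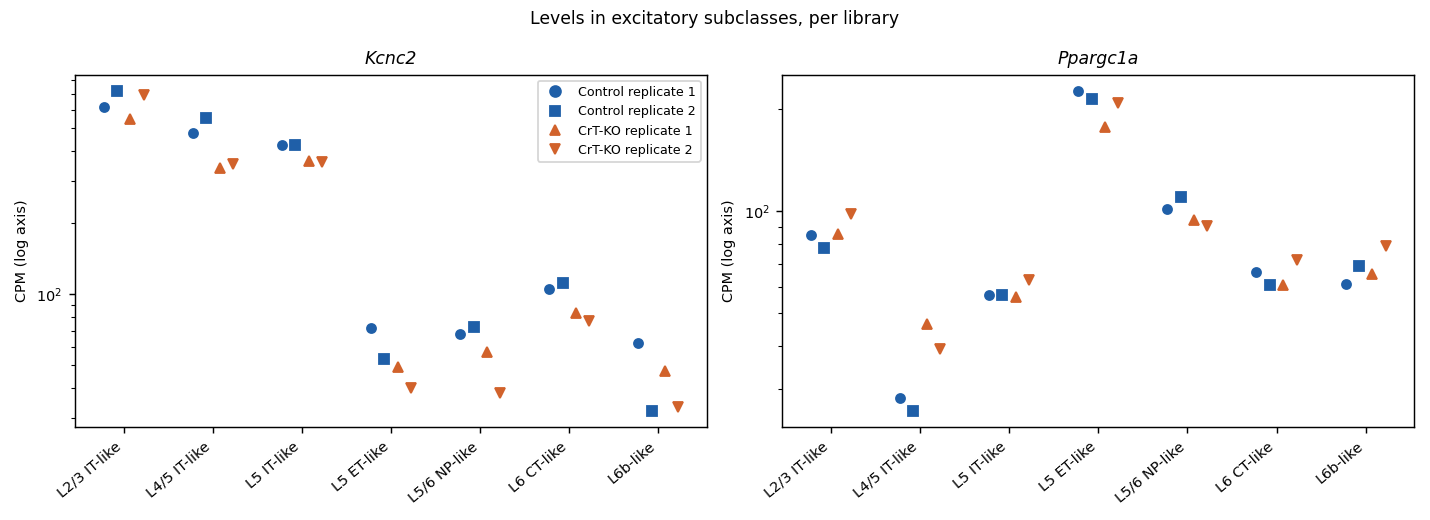
Level of Kcnc2 and Ppargc1a (CPM, log axis) in 7 excitatory subclasses, with 1 point per library. Kcnc2 is lower in both CrT-KO libraries than in both Control libraries in 5 of 7 subclasses, and Ppargc1a is higher in both in L4/5 IT-like nuclei.

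In the other populations 0 of the tested genes were called by edgeR without a replicate block or by DESeq2. Percentages in brackets are the shares of all genes called. They are no background for unadjusted p values. Of all genes, 3.93% (astrocytes) to 9.34% (L2/3 IT-like nuclei) had an unadjusted p under 0.05 in these populations, with 5.85% in L5/6 NP-like nuclei. Over all named nuclei (background 0.0403%), excitatory neurons (0.19%) and inhibitory neurons (0.0777%), all 7 genes were tested, and 0, 1 and 0 had an unadjusted p under 0.05. Among interneurons and MSN-like nuclei, 4 genes were tested in VIP-like (0.0531%), 5 in LAMP5-like (0.0165%) and 6 in MSN-like nuclei (0.384%), with 1, 1 and 0 at an unadjusted p under 0.05. Among excitatory subclasses, 6 were tested in L2/3 IT-like (0.925%), 5 in L5 IT-like (0.183%), 6 in L5 ET-like (0.23%), 6 in L5/6 NP-like (0.0507%), 6 in L6 CT-like (0.243%) and 5 in L6b-like nuclei (0.0146%), with 1, 1, 1, 2, 1 and 0 under 0.05. In glia and vessels, 5 were tested in oligodendrocytes (0.0328%), 4 in oligodendrocyte precursors (OPCs, 0.0344%), 3 in microglia (0.0412%), 3 in astrocytes (0.0185%) and 1 in endothelial cells and pericytes (0.0375%), with 0, 1, 0, 2 and 1 under 0.05.

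Tested genes without overlap between genotypes were counted in the same populations, beside the share over all genes. They were 3 of 7 over all named nuclei (38.2% of all genes), 2 of 7 in excitatory (40.8%) and 3 of 7 in inhibitory neurons (32.1%), 3 of 4 in VIP-like (33.5%), 4 of 5 in LAMP5-like (34.2%) and 2 of 6 in MSN-like nuclei (34%). Among excitatory subclasses they were 2 of 6 in L2/3 IT-like (39.6%), 2 of 5 in L5 IT-like (37.1%), 2 of 6 in L5 ET-like (36.3%), 3 of 6 in L5/6 NP-like (34.2%), 1 of 6 in L6 CT-like (36.4%) and 1 of 5 in L6b-like nuclei (33.2%). In oligodendrocytes (36.9%), OPCs (34%), microglia (34.9%), astrocytes (32.4%) and endothelial cells and pericytes (36.3%) they were 2 of 5, 2 of 4, 0 of 3, 1 of 3 and 0 of 1. LAMP5-like and VIP-like nuclei had the highest shares, on few genes, with Kcnc2 at -0.43 (SE 0.16, adjusted p = 0.838) in LAMP5-like and Ppargc1a at -0.51 (SE 0.25, adjusted p = 0.978) in VIP-like nuclei.

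Of the Kv1 genes of the list, Kcna1 was the higher in oligodendrocytes. It had 301 and 348 CPM there in Control and 373 and 376 in CrT-KO (0.19 as a log2 fold change, SE 0.12, edgeR adjusted p = 0.795). Kcna2 had 40.3 and 35.7 against 42.1 and 47.1 CPM (0.23, SE 0.18, adjusted p = 0.859). These were the 2 genes without overlap in oligodendrocytes. Ppargc1a in astrocytes had 328 and 254 CPM in Control and 345 and 248 in CrT-KO and overlapped. Syt2 in L5/6 NP-like nuclei had 27 and 25 UMIs against 19 and 13, a log2 fold change of -0.84 (SE 0.33, adjusted p = 0.742).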

How the data were processed

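Deposited matrices held raw UMI counts per gene and nucleus, which the authors made with Cell Ranger 3.1.0 on GRCm38 (mm10) with whole gene bodies counted as exon. The processing notes also name Seurat 3.1.4 and FastQC. About 15000 nuclei were loaded per library. Whether strand was used in counting was not given in the sources used here. Doublets were marked with Scrublet in scanpy 1.11.5, and nuclei were clustered (Leiden, igraph 0.11.9, 3000 variable genes, 30 components, 20 neighbours, resolution 1.0) without the 7 genes. Names came from marker lists, with score thresholds (0.4, margin 0.3) set after clusters were seen, and may differ from those of the study.

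UMIs were summed per library and population (at least 20 nuclei per library) and tested with edgeR 4.0.16 (quasi-likelihood, TMM, genes with at least 10 counts and 15 in total, Benjamini-Hochberg, threshold 0.1) in R 4.3.3. DESeq2 1.42.0, no filter, a replicate block, each library left out, doublets kept, the 7 genes kept in clustering and a threshold of 0.05 were alternatives. The test recovered known changes in simulated counts. These changes were larger than those of the 7 genes in PV-like nuclei, and changes as small as the latter were not simulated. CPM values are UMIs of a gene per 1000000 UMIs of the population. Intervals of ratios are the estimate plus or minus 1.96 SE.

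The genes, lists and tests were chosen with earlier results of these data known. Named genes were the 7, Slc6a8, the 3 genes of most similar profile for each, and in each list those called and the 2 with the largest change in PV-like nuclei. Coordinates are from GENCODE vM21, in which 21816 of the 21933 genes were found. Values of some genes that this rule names are not reported here.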

Additional observations from a re-analysis of the deposited data

Results flagged for a closer look

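Of the 6 genes tested in at least 2 populations, 4 had both CrT-KO libraries above both Control libraries in one population where they were tested and below both in another, as had 59.1% of all 11469 such genes. Among genes tested in at least 13 populations, the share was 76.9% of 6026, and 4 of 5 for the genes of the list. None of these differences between populations was tested. Kcnc1 was higher in CrT-KO in MSN-like nuclei (log2 fold change 0.31) and lower in LAMP5-like nuclei (-0.26). Kcna1 was higher in oligodendrocyte precursors (0.83, from 7, 8, 12 and 9 UMIs) and lower in VIP-like nuclei (-0.34, from 13, 17, 13 and 11 UMIs). Kcna2 was higher in astrocytes (1.12, from 1, 15, 21 and 16 UMIs) and lower in layer 6b-like nuclei (-0.58, from 8, 15, 12 and 9 UMIs). Ppargc1a was higher in L4/5 IT-like nuclei (0.72) and lower in VIP-like nuclei (-0.51). Of these 8 values, that of Ppargc1a in L4/5 IT-like nuclei passed the test (edgeR adjusted p = 0.0757).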

How the results depend on the processing

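Of 518 values under alternatives for 65 results, 478 kept their direction and side of the threshold and 24 changed sign, 22 of them with a library left out. In PV-like nuclei 0 of the 7 genes were called under each alternative run. With the replicate block, the replicate number of the labels as a term, 1 gene was called in excitatory neurons and 1 in L6 CT-like nuclei, in both Kcnc2 (adjusted p 0.0792 and 0.00348). The block also raised the calls over all genes. They went from 26 to 564 of 13706 in excitatory neurons, and from 26 to 284 of 10691 in L6 CT-like nuclei. Deviations of same-numbered libraries correlated at 0.144 in PV-like nuclei and 0.375 in excitatory neurons, over only 2 pairs, and the numbers were taken as names. The block changed no other call of the 7 genes. In L4/5 IT-like nuclei the count of 2 became 1 with DESeq2, with the 7 genes left in the clustering and at a threshold of 0.05, and 0 to 2 with a library left out (0 without Control replicate 2, 1 without CrT-KO replicate 1). These alternatives for excitatory subclasses were added after the data were seen.

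With 1 library left out, log2 fold changes in PV-like nuclei ran from -0.086 to 0.044 (Kcnc1), -0.044 to 0.00290 (Kcnc2), -0.26 to 0.11 (Kcna1), -0.14 to 0.31 (Kcna2) and -0.053 to 0.30 (Ppargc1a). In SST-like nuclei they ran from -0.33 to 0.19 (Kcnc1), -0.44 to 0.039 (Kcna1) and -0.28 to 0.83 (Syt2), and in excitatory neurons from -0.68 to 0.35 (Pvalb) and -0.063 to 0.15 (Kcna1). In L4/5 IT-like nuclei they ran from -0.35 to 0.14 (Kcna2) and -0.019 to 0.61 (Syt2), and for Kcnc2 from -0.25 to 0.10 in L2/3 IT-like and from -0.56 to 0.33 in L6b-like nuclei. Kcnc2 in L6b-like nuclei was 0.00797 with doublets kept. Thinned shares, CrT-KO minus Control, ran from -0.47 to 1.46 points for Kcna2 and from -1.39 to 6.36 points for Ppargc1a, and that of Syt2 was 0.537 points without thinning. The cause of these changes was not tested, and 2 libraries a group limit each of them.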

Other observations

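A sub-cluster led by Cpa6 and Lgr5 scored highest for the PV list but was not named. It held 147 nuclei, of which 5 and 110 came from the Control libraries and 18 and 14 from the CrT-KO libraries, so that it made up 5.06% of the inhibitory nuclei of Control replicate 2 and 0.246% to 0.789% of those of the other 3 libraries. No UMI of Pvalb or Syt2 was found in it.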
